A study of Trichoderma asperellum with 9 samples.

Results

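The comparison described here set cultures of the soil fungus Trichoderma asperellum, strain Ts93, given 1 mM copper ions against cultures of the same strain given 0.5 mM BCS. It covered 6 of the 9 libraries of the series and the 7737 gene models, of 9396 listed, whose FPKM reached at least 1 in at least 3 of those 6 libraries. FPKM is the number of fragments assigned to a model, divided by its length and by the size of the library. The 3 copper libraries, the 3 BCS libraries and the 3 control libraries, labelled CK, were all made from total RNA of the wild-type strain. The sources used here give neither the culture medium nor the length of exposure, and do not say if libraries within a group were separate cultures. The p-values below therefore measure the spread between libraries, which may be technical.

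Copper is both a cofactor of enzymes such as laccases, cytochrome oxidase and superoxide dismutase and a toxic ion. Fungi balance it by importing the reduced ion through Ctr transporters when it is scarce, and by binding or exporting it when it is in excess. In the yeast Saccharomyces cerevisiae, the factor Mac1 switches on uptake genes under scarcity and Ace1 switches on metallothioneins under excess, and in Aspergillus fumigatus related factors serve the same tasks. BCS is not spelled out in the labels; the letters usually stand for bathocuproine disulfonate, which binds copper and keeps it from cells. Read in that way, the comparison spans the range from copper withheld to copper supplied in excess. None of this could be traced gene by gene here, since 0 of the 9396 identifiers matched an entry among the 12041 genes annotated in strain FT101 of the species, and the authors' table carries no gene names. Models are therefore described by identifier, level and position in the numbering, and no sequence is shown.

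BCS replicate 2 stood apart from the other BCS libraries, and this bears on every count that follows. The median standard deviation of a model on the log2(FPKM + 1) scale was 0.18 among the copper libraries and 0.32 among the BCS libraries, and it was larger with BCS in 5952 models (76.9%). Between BCS replicates 1 and 3 alone it was 0.16, against 0.34 between replicates 1 and 2 and 0.31 between replicates 2 and 3. Replicate 2 was also the deepest of the 6 libraries, with 14851276 reads assigned to models, while the other 5 held 12335534 to 13464887; the part of depth in its deviation was not tested. The main counts are given with and without it.

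A large part of the transcriptome differed between the treatments. In a limma fit to the 6 libraries on log2(FPKM + 1), 2856 models (36.9% of those tested) passed an adjusted p of 0.05, of which 1899 (24.5%) were higher and 957 (12.4%) lower with copper. Most differences were moderate. The median difference among models higher with copper was 2.10-fold, and 846 of them (44.5%) lay under 2-fold. Among models lower with copper the median was 2.27-fold, with 358 (37.4%) under 2-fold. At least 4-fold differences were found in 267 models higher and 221 lower with copper. At 8-fold and beyond both directions held 109 models, and at 16-fold and beyond 55 were higher and 62 lower, so the excess of models higher with copper lay among the smaller differences. Without BCS replicate 2, 334 models were higher and 246 lower at 4-fold and beyond, and 124 and 121 at 8-fold and beyond. All these folds are of FPKM + 1, a scale that understates those of weak models. Called models at least 4-fold apart numbered 488 on this scale, 708 with a pseudocount of 0.1 FPKM and 722 with voom on recovered reads. The plot of fold change against level shows the calls over the whole range of expression.

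**Figure D1:**
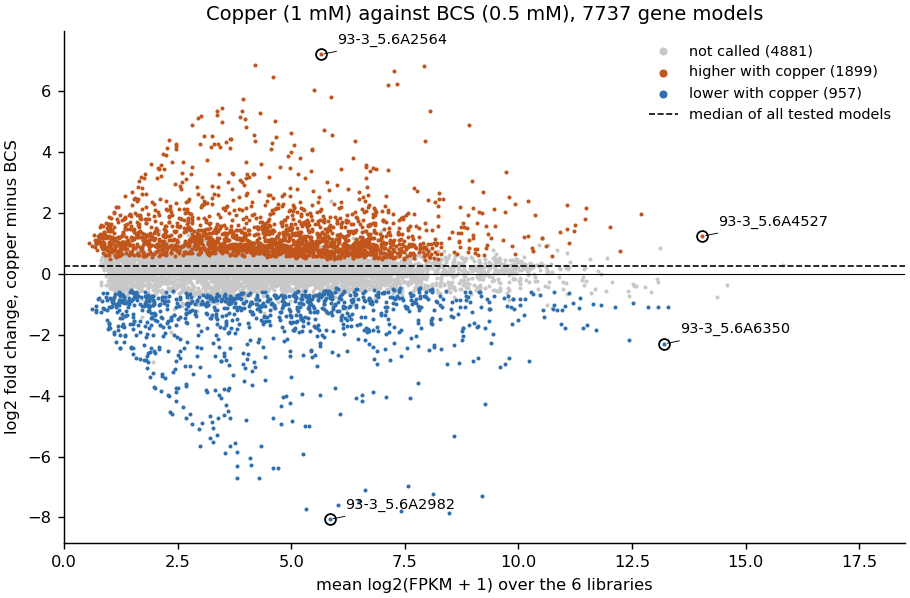
Each point is a gene model; the x axis is its mean log2(FPKM + 1) over the 3 copper and 3 BCS libraries and the y axis its log2 fold change, copper minus BCS. The 1899 models higher with copper, the 957 lower with copper and the 4881 not called are coloured, the dashed line is the median of all tested models at 0.25, and circles mark the 4 named models.

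The direction of the weaker differences rested on the scaling of the libraries. Over all models tested, the log2 fold change had a median of 0.25, with quartiles of -0.20 and 0.68, so a typical model read slightly higher with copper. After median-of-ratios scaling, which moved that median to 0.0039, 1494 models were higher and 1493 lower with copper. Quantile normalization gave 1567 higher and 1443 lower, and rescaling to equal totals (the TPM scale) gave 2165 higher and 872 lower. A model with a log2 difference near 0.25 thus cannot be given a direction from these values. The counts also rested on single libraries: without BCS replicate 2 the fit called 4381 models, 3234 higher and 1147 lower, and without copper replicate 3 it called 1828, 1226 higher and 602 lower.

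No overlap between the 3 copper and the 3 BCS libraries was found for 3852 models (49.8% of those tested), of which 2558 (33.1%) lay above and 1294 (16.7%) below. Among the called models it held for 1879 of the 1899 higher and 944 of the 957 lower, which uses the same values as the calls. Of the 4881 models that were not called, 3529 (72.3%) had a 95% interval of the fold change that stayed within 2-fold in both directions, and for the other 1352 the interval reached a 2-fold difference. The calls were spread over all levels. In 5 classes of rising mean level, with median FPKM of 2.45, 9.90, 23.4, 55.0 and 207, the percentage of models called was 42.2%, 33.2%, 33.9%, 35.7% and 39.4%. Models higher with copper made up 63.8% of the calls in the lowest class, 72.2% in the middle class and 60.5% in the highest. Without BCS replicate 2 between 53.5% and 59.4% of a class was called, with 68.7%, 80.3% and 64.2% of the calls higher with copper in the lowest, middle and highest class.

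The expression filter bears on which models were tested. Without a filter on low values 2976 of 8953 models were called (33.2%, against 36.9% with the filter), of which 2696 were on the reported list. Of the 7737 models, 185 reached 1 FPKM in all copper libraries and in no BCS library, and 126 in all BCS libraries and in no copper library. Such models entered through the group in which they were high, and 176 and 121 of them were called. Among the 7426 others, 1723 were higher and 836 lower with copper, 34.5% in all (3057 and 1028 without BCS replicate 2). At the edge of the filter, 378 models reached 1 FPKM in exactly 3 libraries and had a median mean level of 1.38 FPKM, while the 189 that reached it in exactly 2 and were left out had 0.83 FPKM. Models with a strain-specific number (6370 tested) and models with identifiers of the type of Novel00360 (1367 tested) were called at rates of 36.0% and 41.1%. Their median lengths, as fitted from the FPKM steps, were 1143 and 2019 bases, and 99.9% and 34.2% of the lengths were divisible by 3. The sources used here state no coding lengths, and the term stands below for the fitted length of a numbered model. Of the numbered models 24.8% were higher and 11.2% lower with copper, and of the others 23.5% were higher and 17.6% lower, shares that carry no test. Without BCS replicate 2 the order of the rates turned, at 57.2% of numbered and 54.1% of the other models: 43.3% and 34.7% were higher, and 13.8% and 19.4% lower with copper.

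The control libraries, which did not enter this fit, lay between the treatments, and nearer to copper for the models that were lower with copper. Each library was placed for each called model on a line on which the BCS mean is 0 and the copper mean is 1. For the 1899 models higher with copper the median positions of the 3 control libraries were 0.56, 0.45 and 0.47, about midway. For the 957 models lower with copper they were 0.69, 0.74 and 0.69. In 684 of these 957 models (71.5%) the control mean was nearer to the copper mean than to the BCS mean, against 913 of the 1899 (48.1%) among models higher with copper. The spread over models was wide, with quartiles of 0.28 and 0.85 for control replicate 1 in the models higher with copper.

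**Figure D2:**
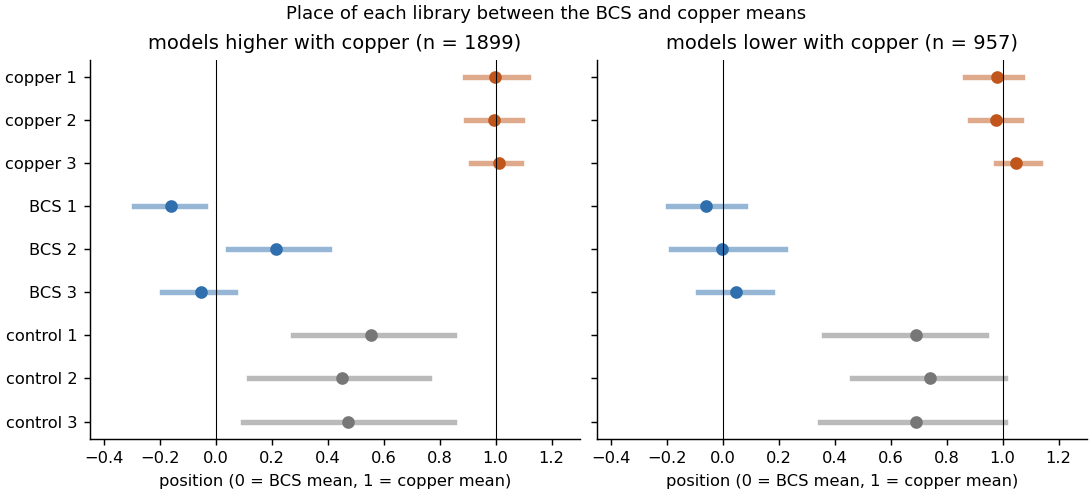
Position of each library between the BCS mean (0) and the copper mean (1) on the log2(FPKM + 1) scale, for models higher (left) and lower (right) with copper; points are medians over models and bars run between the quartiles. The control libraries sit at 0.45 to 0.56 on the left and at 0.69 to 0.74 on the right, and BCS replicate 2 sits at 0.21 on the left and -0.0010 on the right.

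BCS replicate 2 deviated in one direction mainly. For models higher with copper its median position was 0.21, against -0.16 and -0.054 for BCS replicates 1 and 3, and it was the BCS library nearest to the copper mean in 1333 of 1899 models (70.2%). For models lower with copper it stood at -0.0010, within the other BCS libraries, and was nearest to copper in 365 of 957 (38.1%). This split also moved with scaling, since after median-of-ratios scaling the same positions were 0.027 and 0.17. With calls and means taken without that library, the mean position of the controls was 0.63 for 3234 models higher with copper and 0.75 for 1147 models lower with copper. The control mean was then nearer to copper in 2014 (62.3%) and 866 (75.5%) of these models, so the midway position of the controls was not kept. Under other scalings the models were not called anew, and the reported lists of 1899 and 957 were used. The controls were again nearer to copper for models lower with copper on the TPM scale (0.79 against 0.41 for models higher with copper). The same held after median-of-ratios scaling (0.66 against 0.54) and quantile normalization (0.65 against 0.53). The control mean fell between the treatment means in 1501 of 1899 and 734 of 957 called models, and in 1884 of 4881 models (38.6%) not called. Choosing models with distant treatment means itself favours an intermediate control, so these shares are a description. All 9 libraries were ordered by group, with copper above control above BCS, in 317 of the models higher with copper (16.7%), against 322 of all 7737 tested (4.16%). The reverse order held in 189 of those lower with copper (19.7%), against 191 of all tested (2.47%). Either order requires copper and BCS libraries without overlap, which held for 1879 of the 1899 and 944 of the 957 called models. Among all tested models it held for 33.1% and 16.7%. The larger shares among called models thus follow in part from the calls.

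With FPKM as deposited, models lower with copper were fewer, but held a similar share of the summed FPKM in the treatment in which they were high. After median-of-ratios scaling they were not fewer to any extent that matters, at 1493 lower and 1494 higher. The 957 models lower with copper held 10.7%, 11.2% and 9.95% of the summed FPKM in the copper libraries, against 33.8%, 26.0% and 29.4% in BCS replicates 1 to 3. The 1899 models higher with copper held 24.4%, 28.8% and 29.2% in the copper libraries, against 9.04%, 10.8% and 9.86% in the BCS libraries. Neither list overlapped between the treatments in this share, which follows from how the lists were chosen, and in both the controls lay between (13.7% to 17.8% for the models lower with copper, 15.7% to 19.5% for those higher). The difference was concentrated in abundant models. Of the summed difference in mean FPKM, 22 models carried 50% among those lower with copper and 36 among those higher, and the 10 largest carried 34.3% and 29.3%. The longer lists called without BCS replicate 2 held 18.2% in copper libraries and 44.8% in the remaining BCS libraries (lower with copper), and 39.3% and 16.3% (higher with copper).

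**Figure D3:**
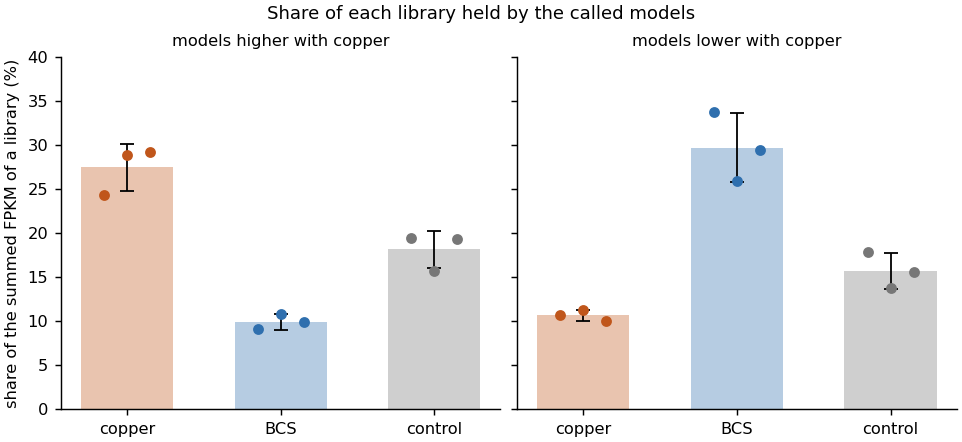
Share of the summed FPKM of a library (y axis, percent) held by the models higher (left) and lower (right) with copper; points are libraries, bars group means and error bars 1 SD (n = 3). The models lower with copper hold 25.96% to 33.8% in BCS libraries and 9.95% to 11.2% in copper libraries.

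The summed FPKM of copper libraries was also spread over more models. In the copper libraries 189, 174 and 161 models together held 50% of the summed FPKM, against 106, 159 and 98 in BCS replicates 1, 2 and 3 and 105 to 115 in the control libraries. The copper libraries lay above all BCS libraries, but by only 2 models between copper replicate 3 and BCS replicate 2. Concentration in the 10 most abundant models overlapped between the treatments, at 16.8% to 18.6% with copper and 17.4% to 22.3% with BCS.

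Named models were chosen in each direction as the one with the largest log2 fold change and the one with the largest difference in mean FPKM, among called models without overlap. The largest log2 difference above BCS belonged to 93-3_5.6A2564 (coding length 741 bases), at 521, 722 and 608 FPKM with copper, against 2.63, 5.45 and 2.00 FPKM with BCS. All copper libraries lay far above all BCS libraries, and the controls, at 266, 102 and 203 FPKM, lay between. The ratio of mean FPKM was 183.5, and the log2 fold change was 7.21 (95% interval 6.57 to 7.86, limma adjusted p = 3.2e-07). The fewest reads behind a value were 4763 with copper and 20 with BCS.

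The largest gain in FPKM belonged to a far more abundant model, 93-3_5.6A4527 (coding length 603 bases). It had 17713, 29602 and 33334 FPKM with copper, against 12387, 7655 and 14026 FPKM with BCS. The groups did not overlap, but the controls, at 19447, 11202 and 8058 FPKM, reached into both. The ratio of mean FPKM was 2.37 and the log2 fold change 1.24 (95% interval 0.38 to 2.09, limma adjusted p = 0.030). This call did not hold after median-of-ratios scaling (log2 fold change 0.97, limma adjusted p = 0.16), without a filter on low values (limma adjusted p = 0.062), or without copper replicate 2 or 3 (limma adjusted p = 0.097 and 0.14).

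In the other direction, 93-3_5.6A2982 (coding length 444 bases) was nearly silent with copper, at 0.73, 5.19 and 2.98 FPKM, against 1709, 646 and 744 FPKM with BCS. The controls, at 8.19, 3.28 and 15.2 FPKM, lay close to copper. Mean FPKM was 348.0 times as high with BCS, and the log2 fold change was -8.07 (95% interval -9.15 to -6.99, limma adjusted p = 3.3e-06). The lowest copper value rested on 4 reads.

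The largest loss in FPKM was that of 93-3_5.6A6350 (coding length 417 bases). It had 3905, 4889 and 4001 FPKM with copper, against 26295, 11636 and 29830 FPKM with BCS, and the groups did not overlap. BCS replicate 2 was the lowest of the BCS libraries. The log2 fold change was -2.30 (95% interval -3.16 to -1.44, limma adjusted p = 1.5e-03), and -2.72 without BCS replicate 2. The controls spread over more than the range of both treatments, at 32771, 6430 and 2720 FPKM, so that neither treatment can be placed relative to them for this model.

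**Figure D4:**
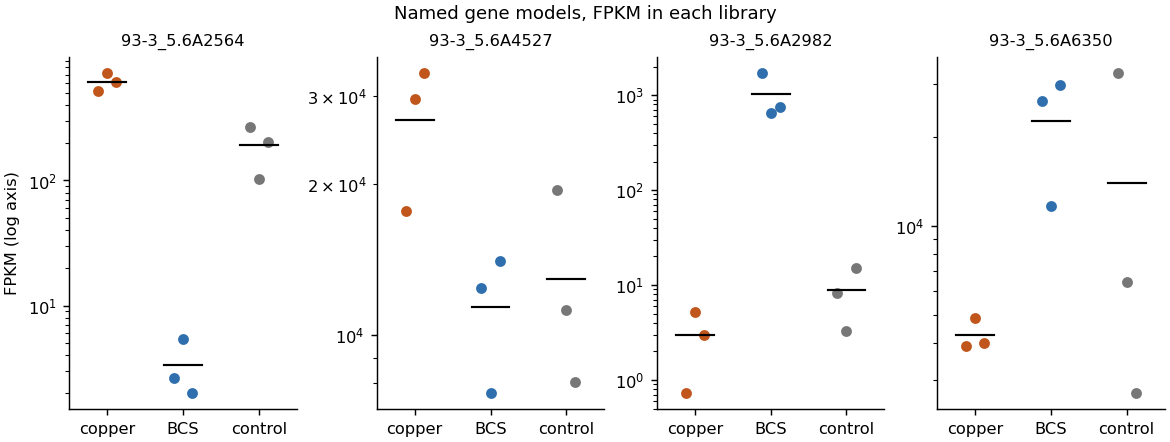
FPKM in each library (log axis, different in each panel) of the 4 named models with copper, with BCS and in the control; points are libraries and lines group means. 93-3_5.6A2564 and 93-3_5.6A4527 are higher with copper, 93-3_5.6A2982 and 93-3_5.6A6350 lower, and the control libraries of 93-3_5.6A6350 spread from 2720 to 32771 FPKM.

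Some models were on in one treatment and off in the other. Every copper library was at 5 FPKM or more and every BCS library under 1 FPKM in 33 models, and the reverse held in 34. By this definition such models entered through the group in which they were high, so they are described without a test. After median-of-ratios scaling the counts were 27 and 38, and without copper replicate 2 they were 37 and 47. Of the 33 models on with copper, 8 were also at 5 FPKM or more in all control libraries and 4 were under 1 in all, with a median control mean of 2.87 FPKM. Of the 34 models on with BCS, 1 was at 5 or more in all control libraries and 12 were under 1 in all, with a median control mean of 1.14 FPKM. The median mean level in the treatment in which a model was on was 14.4 FPKM with copper for the first set and 23.5 FPKM with BCS for the second. Without BCS replicate 2 the sets held 44 and 43 models; leaving out a library can only enlarge them.

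Models with consecutive identifier numbers tended to move together. The numbers of the 7043 numbered models run up to 7051 with few gaps; whether they follow the order along the genome is not stated in the labels or the table. Of 1444 models higher with copper whose next number was also tested, 473 (32.8%) had a next model that was higher too, against 24.5% of all next models. Of 643 models lower with copper, 136 (21.2%) had a next model that was lower too, against 10.9% of all. At differences of 2 to 20 numbers these shares lay between 22.9% and 26.4% for models higher with copper and between 9.23% and 13.2% for models lower with copper, around the level of all models. Over 5903 pairs of consecutive numbers the log2 fold changes correlated at Pearson r = 0.21, at a difference of 2 numbers at 0.050, and at 3 to 20 numbers at -0.027 to 0.020. The pairs share libraries and models, so these values are a description without a test. Opposite calls were found in 245 of the 5903 pairs of consecutive numbers, against 304 to 350 of 5752 to 5834 pairs at differences of 2 to 20.

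**Figure D5:**
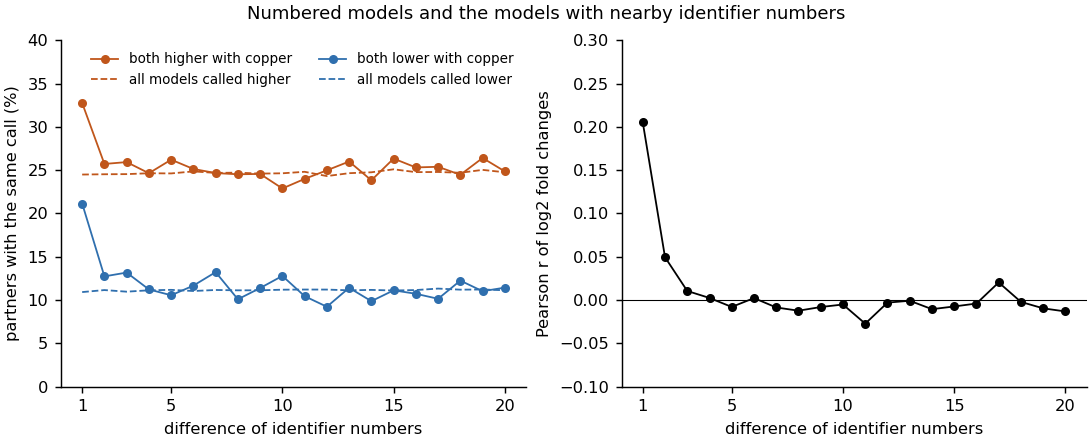
Left, percentage of partners with the same call (y axis) against the difference between identifier numbers (x axis), with dashed lines for the share of all partners that were called; right, Pearson r of the log2 fold changes. The distance from the dashed lines is largest at a difference of 1, at 32.8% for models higher and 21.2% for models lower with copper.

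The excess at consecutive numbers was also seen without BCS replicate 2 (49.1% against 43.3% for higher, 24.3% against 13.6% for lower), on the TPM scale (36.2% against 28.2%, 19.6% against 9.69%) and after median-of-ratios scaling (27.9% against 19.0%, 26.3% against 18.0%), with r between 0.20 and 0.21. Whether reads of neighbouring or overlapping models were shared in the authors' counting was not tested. Runs of at least 3 consecutive numbers with the same call numbered 103 among models higher with copper (350 models) and 26 among models lower with copper (81 models). With 24.8% of the tested numbered models called higher and 11.2% lower, some such runs arise without any grouping. The number to be met at these rates was not computed, so the run counts alone do not show grouping. Without BCS replicate 2, which lengthens the lists, they numbered 323 (1210 models) and 34 (110 models).

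The longest run with all 6 libraries, singled out after its values were seen, comprised 8 models from 93-3_5.6A4876 to 93-3_5.6A4883, all higher with copper by 1.58 to 5.36 log2 units. Its last member had 82.5, 74.9 and 139.6 FPKM with copper, against 1.21, 1.47 and 1.37 FPKM with BCS. The controls stood at 13.4, 3.62 and 16.7 FPKM, between the treatments and nearer in FPKM to BCS. Model 93-3_5.6A4882 had 35.9, 36.7 and 68.3 FPKM with copper, against 0.16, 0.33 and 0.44 FPKM with BCS. The run held a model of 11151 coding bases, 93-3_5.6A4880, which was weak throughout, at 4.34, 2.04 and 4.995 FPKM with copper, against 0.10, 0.28 and 0.22 FPKM with BCS. All 8 models were also called higher without BCS replicate 2 and lay without overlap between the treatments. Both use the same values as the calls and add no support to the run. Models 93-3_5.6A4877, 93-3_5.6A4880, 93-3_5.6A4881 and 93-3_5.6A4882 were under 1 FPKM in every BCS library, so they entered through the copper libraries. The next number, 93-3_5.6A4884, did not pass the test (log2 fold change -0.32, limma adjusted p = 0.66).

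A shorter run of 4 models, 93-3_5.6A0482 to 93-3_5.6A0485, was higher with copper by at least 4-fold in each member and was likewise singled out after its values were seen. The strongest member, 93-3_5.6A0483, had 137, 131 and 432 FPKM with copper, against 1.02, 0.54 and 0.60 FPKM with BCS. Copper replicate 3 was the highest of the copper libraries in all 4 members, at 343, 432, 105 and 190 FPKM in number order, while the other copper libraries stayed at 38.6 to 137 FPKM. The models on either side, 93-3_5.6A0481 and 93-3_5.6A0486, did not pass the test (limma adjusted p = 0.43 and 0.072).

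Among models lower with copper, the 4 models from 93-3_5.6A6379 to 93-3_5.6A6382 formed such a run, singled out in the same way. Model 93-3_5.6A6381 had 0.71, 2.40 and 0.29 FPKM with copper, against 430.0, 32.6 and 242 FPKM with BCS, and 93-3_5.6A6380 had 0.55, 2.78 and 0.53 FPKM with copper, against 395, 30.03 and 213 FPKM with BCS. BCS replicate 2 was the lowest BCS library in all 4 members, yet above every copper library. Model 93-3_5.6A6379 was under 1 FPKM in every copper library, so it entered through the BCS libraries. The control libraries lay at or under 2.39 FPKM in all 4, at or near the level of the copper libraries. The log2 fold changes ran from -6.28 to -2.43, and the model numbered just before the run, 93-3_5.6A6378, did not pass the test (log2 fold change 0.14, limma adjusted p = 0.73).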

How the data were processed

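The authors deposited 1 table of FPKM values with 1 column per library. The tools named, per the submitters' processing notes and without roles, are TopHat2 2.0.12, Bowtie2 2.2.3, DESeq 1.18.0 and HTSeq 0.6.1. A mouse build is listed there too; the sources used here give no fungal genome or annotation. Groups were taken from the sample titles. FPKM are no counts, so limma 3.58.1 (R 4.3.3) was fitted with a mean-variance trend to log2(FPKM + 1) of the 6 libraries, with 1 mean per group. This scale understates changes of weak models. Two-sided p-values were corrected with the Benjamini-Hochberg procedure over the 7737 models tested, and models were called at an adjusted p under 0.05. A self-test on simulated data was run. Read totals (12335534 to 17142918 over the 9 libraries) and model lengths were recovered from the steps between FPKM values (totals within 0.0224 of a whole number, reads of a model within 0.01) and served depth, lengths and a voom alternative only. Recovered reads of libraries of the same group differed with a chi-square of 26.9 to 256 per degree of freedom, more than read sampling alone gives. No library was therefore a mere re-sequencing of another of its group. These values do not show whether libraries came from separate cultures. Named models also had a mean of at least 5 FPKM in the higher group. The comparison, rules and alternatives were chosen with earlier results of these data known. Gene lists could not be filled, and statistics of the control libraries serve description only. Python 3.11.15 was used for summaries.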

Additional observations from a re-analysis of the deposited data

How the results depend on the processing

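The direction of the fold change of each of the 4 named models was the same under every alternative run that tested it. These models were chosen for no overlap between copper and BCS libraries. Leaving out a library or changing the filter, pseudocount or moderation therefore could not reverse their direction. The count of 2856 called models lay between 2269 and 3037 under other filters, a pseudocount of 0.1, the 3 scalings, robust moderation, voom on recovered reads (2860, of which 2785 were on the reported list) and a fit to all 9 libraries (2765, 2625 shared). The filters changed how many models were tested. Without a filter 33.2% of 8953 models were called, against 36.9% of 7737 as reported. With at least 1 FPKM in all 6 libraries it was 33.7% of 6894, and at a mean of at least 5 FPKM 35.9% of 6316. The count was 4532, with 3222 higher with copper, when each library was weighted by its spread. BCS replicate 2 then had the lowest weight, 0.18. Models lower with copper, 957 as reported, were 1493 after median-of-ratios scaling and 1443 after quantile normalization. Leaving out 1 library at a time gave 1828 to 4381 called models, 1226 to 3234 higher and 602 to 1147 lower with copper; the lowest counts came without copper replicate 3 and the highest without BCS replicate 2. With the replicate number as a block the fit called 2444 models, and 93-3_5.6A4527 no longer passed (limma adjusted p = 0.053). The labels do not say whether the numbers pair the libraries. Deviations of same-numbered copper and BCS libraries correlated at -0.21, -0.28 and 0.0013, and 0 of 3 copper libraries correlated best with its own number. With 3 libraries per group and BCS replicate 2 standing apart, these values cannot show whether libraries were paired. Positions of the controls, neighbour shares, and counts by size, level, kind and run without BCS replicate 2 were alternatives chosen after seeing the data. Depth limits models with few reads, such as 93-3_5.6A2982 with copper.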

Other observations

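Among the tested models, 4 were listed at 0 in all libraries of one treatment, and they are named here because they are so few. Novel01779 and Novel00708 were listed at 0 in all 3 copper libraries, against 3.07 to 6.40 and 3.55 to 5.86 FPKM with BCS. Both were near 0 in the control as well, at 0.54 and 0.043 FPKM in control replicate 3 and 0 in the others. 93-3_5.6A6784 and Novel00360 had 1.43 to 2.95 and 1.42 to 2.32 FPKM with copper and were listed at 0 in all 3 BCS libraries. They differed in the control, where 93-3_5.6A6784 was at 0 to 0.13 FPKM and Novel00360 at 4.51 to 8.35 FPKM, above its copper level in every library.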
